A study of Mus musculus with 2 samples.

Results

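Annotated splice junctions over introns of 100 kb or more were examined in poly(A)-selected RNA from whole brains of mixed-sex C57BL/6J mice at embryonic day 14.5. A splice junction is a read position where 2 exons meet after the intron between them has been removed. The deposited junction table, on mouse build mm9, lists 1213972 junctions. Members were chosen by measured values: a junction was taken where the table tags it as annotated, its reproducibility value is 0.1 or less, it carries 2 or more reads and its intron spans 100 kb or more. This gave 1053 junctions in 651 genes. They are 0.646% of the 162979 annotated junctions that pass the same read and reproducibility thresholds, and they hold 0.207% of the reads of those junctions. Length, reads and reproducibility chose the members, so these values are given as a description.

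The tissue was sequenced in 2 libraries of stranded paired-end reads from rRNA-depleted RNA longer than 200 nt, given by the labels as replicate 2 and replicate 1 of the same group. No treatment or genotype was compared. Both libraries came from littermates, and no label says which animals entered which, so the difference between them may be technical in part or whole. The junction table gives each junction a read number for each replicate, called R2 and R1, which no label ties to a library of the gene tables. R2 reads sum to 47694368 over all junctions and R1 reads to 52704888. Marker genes of neurons fitted the label of the tissue, with all 6 at 1 TPM (a length-normalised share of the transcripts) or more in both libraries and summing to 4149 TPM in replicate 2, against 4011 TPM in replicate 1. Red-cell markers summed to 8136 TPM in replicate 2, against 6860 TPM in replicate 1, and mesenchyme and bone markers to 309.3 TPM in replicate 2 against 93.3 TPM in replicate 1, with 3 of 3 and 2 of 3 of these markers at 1 TPM or more in both libraries. In bulk tissue, fewer cells of a type and less RNA per cell cannot be told apart.

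The removal of an intron can be completed only after RNA polymerase has copied it whole. In a very long intron the acceptor site (its end) is therefore copied long after the donor site (the start of the intron). In vertebrates the longest introns lie mainly in large genes for adhesion molecules, ion channels, receptors and signalling proteins of neurons, and some of them are known to be removed in several steps, a process called recursive splicing. A read across an annotated junction of this kind records the completed removal of the intron, whichever steps led to it.

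The exon sequences that meet at a few of these junctions show what such a read contains. The first 4 lines are junctions with some of the highest read numbers, the Ctnna2 intron of 461237 bases and the next 5 lines are among the longest, and the last is the Abr junction, which is among the lowest against the shorter junctions of its gene. Each line gives 15 bases on either side of the junction from the GENCODE vM21 transcript, on build mm10, with the last 3 bases of the upstream exon in capitals. The coordinates are those of the removed intron.
Dner, chr1:84585622-84695452, minus strand: ggcacctattgtCAGtttgttgcagatcct
Cmip, chr8:117257402-117377074, plus strand: ttagcatccgccACGccgtctgggtacatg
Ctnna2, chr6:77653172-77758395, minus strand: atgtgcggaagcAAGgtgagacaatgcgga
Dclk1, chr3:55256212-55380780, plus strand: ctggatgggaagCAGgtgatgtgccttcag
Ctnna2, chr6:77143944-77605180, minus strand: gagtacatgaatAACactggaaggaaagag
Kcnd2, chr6:21217414-21714134, plus strand: catgacaacactGGGgtatggcgacatggt
Macrod2, chr2:141024142-141515203, plus strand: acctccctgcaaAGTatgtcatccatactg
Tenm2, chr11:36385329-36864667, minus strand: cggatgacgacaATGgtcgtcccattccac
Dpp6, chr5:26905289-27382754, plus strand: cagggcaacgtgATGgagctggtggggagt
Grip1, chr10:119454423-119929900, plus strand: aggagcaggagaGAGaggaattcaagggct
Abr, chr11:76509073-76622176, minus strand: acggtttctccgCAGacttcagctacggtg

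The upstream exon ended in AG in 56.8% of the 966 members matched to a vM21 transcript, against 56.6% of 9105 shorter junctions of the same genes. It ended in G in 83.7% of the members and 79.1% of the shorter junctions, and the downstream exon began with G in 46.1% of the members and 45.9% of the shorter ones. The exon edges of long introns were therefore close in these letters to those of the shorter introns of their genes. The intron side of the splice sites was not analysed here.

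Among the members, reads per junction ranged widely and hardly followed intron length. The members had a median length of 143058 bases (lowest 100079, highest 496721), and 237 of them spanned 200 kb or more. Their median was 89 reads (lowest 5, highest 4715); 478 had 100 reads or more and 31 had 1000 or more. Spearman's rho between length and reads was -0.04 over the 1053 junctions, which share libraries and, in part, genes. Length and reads chose these junctions, and reads were not set against the level of each gene. Nothing is therefore read from rho about annotated introns at large. R2 had no read in 1 member and R1 had none in 5. The 20 members with the most reads held 17.9% of all member reads.

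**Figure D1:**
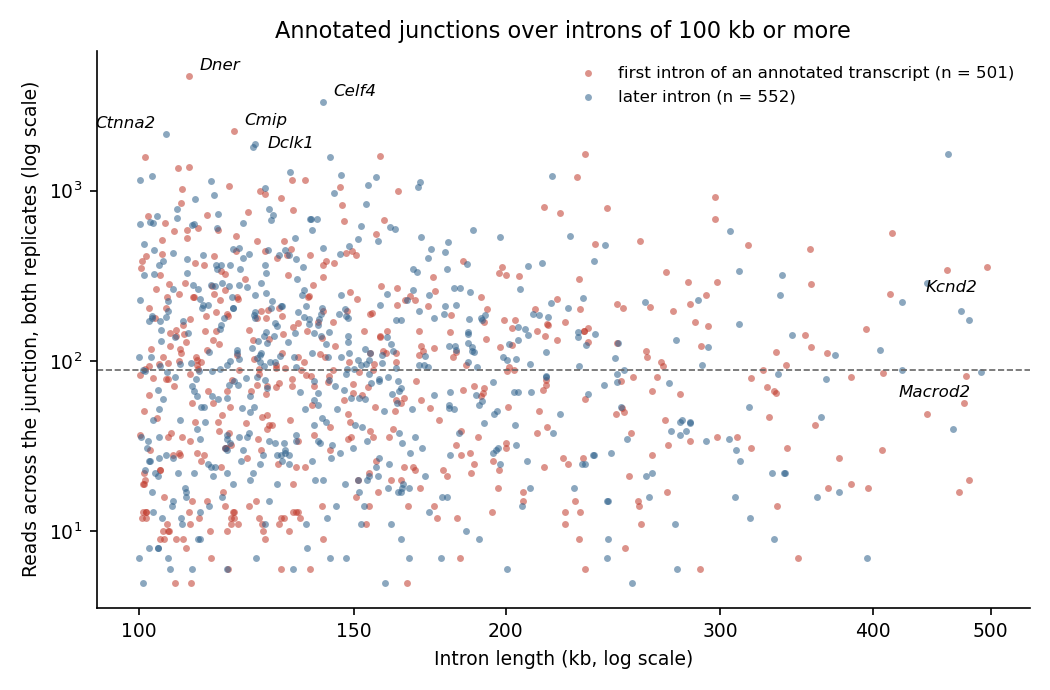
Each point is 1 of the 1053 junctions, with intron length in kb on the x axis (log scale) and the summed reads of both replicates on the y axis (log scale); red marks first introns of an annotated transcript and blue later introns, and the dashed line is the median of 89 reads. Reads spread over the same range at most lengths, and Kcnd2 and Macrod2 mark the longest introns.

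Dner, which encodes a Delta- and Notch-like transmembrane protein of neurons, had the junction with the most reads. Its intron of 109831 bases on chromosome 1 carried 2176 reads in R2 and 2539 reads in R1, or 46.9 ± 1.80 junction reads per 1e6 reads of the table (SD, n = 2). Celf4, an RNA-binding regulator of splicing and translation in neurons, followed with 1763 reads in R2 and 1538 reads in R1. Cmip, an adaptor protein of signalling, had 1203 reads in R2 and 1028 reads in R1 over its first intron of 119673 bases. Dclk1, a kinase that binds microtubules in migrating neurons, had 1070 reads in R2 and 824 reads in R1. Relative to the totals R2 stood above R1 in Celf4, Cmip and Dclk1, and in 17 of the 20 junctions with the most reads, and below R1 in Dner. By the same measure R2 was the higher in 81.4% of all members and in 59.2% of all shorter junctions.

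Ctnna2, the neuronal alpha-catenin that links cadherins to actin, held 4 members, 3 of them among the 20 with the most reads. Its junction over 105224 bases had 1172 reads in R2 and 988 in R1, that over 461237 bases had 863 in R2 and 784 in R1, and that over 133029 bases had 714 in R2 and 576 in R1. The intron of 461237 bases thus yielded reads of the same order as much shorter introns of the same gene. Cdh2, the neural cadherin, had 884 reads in R2 and 912 in R1. Ntm and Negr1, cell-surface proteins of the IgLON family, had 940 reads in R2 and 706 in R1, and 650 reads in R2 and 547 in R1. Ncam1, the neural cell adhesion molecule, had 750 reads in R2 and 448 in R1.

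Other junctions of that group belonged to genes of several roles. The regulatory subunit gene of protein phosphatase 2A, Ppp2r2b, had 647 reads in R2 and 950 in R1, and the kainate receptor gene Grik2 had 591 in R2 and 767 in R1. In both, R2 was the lower value even relative to the totals. The RNA demethylase gene Fto had 902 reads in R2 and 673 in R1, and Sez6l, for a neuronal membrane protein, had 829 in R2 and 739 in R1. The RNA-binding genes Msi2 and Khdrbs2 had 819 reads in R2 and 566 in R1, and 686 reads in R2 and 552 in R1. Fam19a5, for a secreted protein of neurons, had 553 in R2 and 611 in R1.

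**Figure D2:**
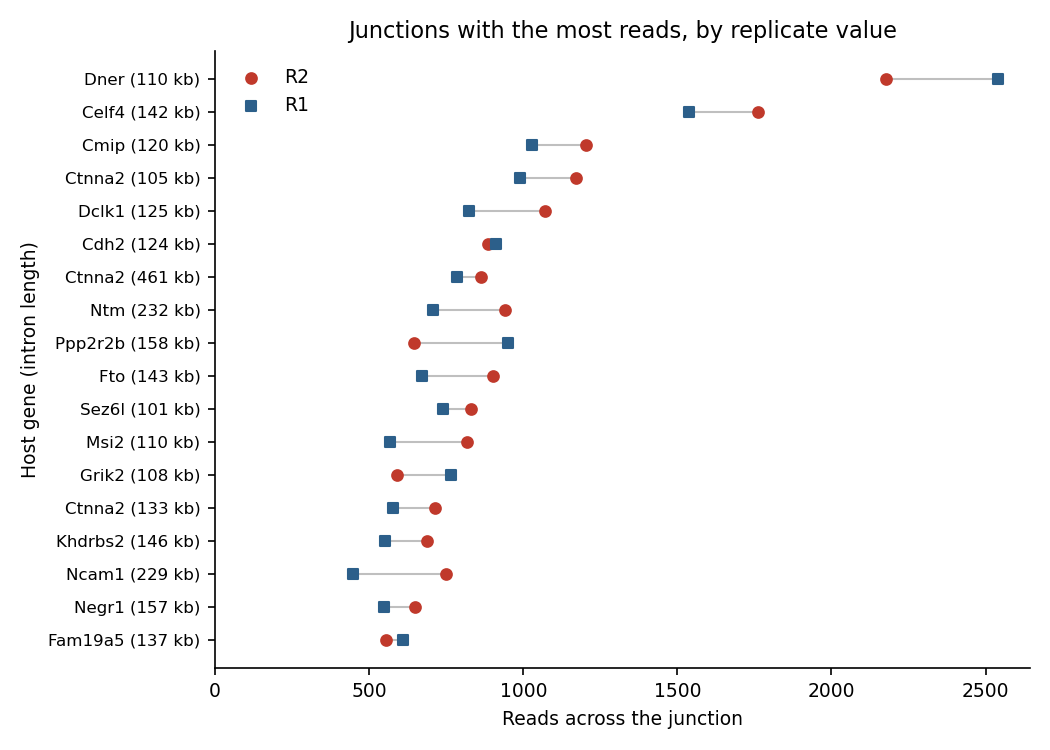
For 18 of the 20 junctions with the most reads, the x axis gives reads across the junction in R2 (red circles) and R1 (blue squares), and the y axis the host gene with its intron length in kb. Dner stands apart with 2176 reads in R2 and 2539 in R1, and the other junctions lie closer together.

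Introns of 400 kb and more were removed in 20 cases in 19 genes, with 17 to 1647 reads and a median of 102.5, against 89 for all members. The longest was the first intron of Kcnd2, the pore-forming subunit of a fast-inactivating potassium channel. It spans 496721 bases at chr6:21167414-21664134 on the plus strand of mm9 and carried 216 reads in R2 and 141 reads in R1. The next intron of the transcript had 214 reads in R2 and 142 in R1, so the longest junction and its neighbour were almost equal in both replicates. Macrod2, for an enzyme that removes ADP-ribose, had 57 reads in R2 and 29 in R1 over 491062 bases. Tenm2, an adhesion receptor of synapses, had 117 in R2 and 56 in R1 over 479339 bases, and Nlgn1, a postsynaptic adhesion protein, had 112 in R2 and 85 in R1 over 472564 bases.

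The remaining junctions among the longest had fewer reads. Dpp6, an auxiliary subunit of Kcnd2-type channels, had 58 reads in R2 and 24 in R1 over 477466 bases. Grip1, a scaffold for glutamate receptors, had 29 in R2 and 28 in R1 over 475478 bases. Pde4d, a cyclic AMP phosphodiesterase, had 9 in R2 and 11 in R1 over 479455 bases, and Il1rapl1, a synaptic adhesion protein, had 8 in R2 and 9 in R1 over 470851 bases. ENSMUSG00000061864, which has no symbol in vM21, had 20 reads in each replicate over 465135 bases. The mm9 annotation also holds 39 introns longer than 500 kb, and none of them had a read, whereas 121 unannotated junctions that pass the thresholds are longer than that.

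Several members often lay in the same gene. Of the 651 host genes 443 had 1 member, 111 had 2, 48 had 3 and 49 had 4 or more. Ptprd, a receptor-type phosphatase that organises synapses, had the most with 10, of 102942 to 293130 bases and with 94 to 326 reads. These introns together span 1994547 bases, although some overlap because they share a site. The 10 Ptprd junctions were not equal: the last of them in transcript order had 181 reads in R2 and 145 in R1, and the one at the far 5′ end had 112 in R2 and 58 in R1. Lingo2, a leucine-rich repeat adhesion protein, had 8 members of 13 to 62 reads, and the transcription factor gene Npas3 had 7 of 21 to 276 reads.

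Cdh13, a cadherin anchored to the membrane by a lipid, held 5 members with no more than small numbers of reads at their sites going elsewhere. In transcript order they had 460, 608, 432, 617 and 425 reads in R2, and 282, 449, 300, 417 and 282 reads in R1. The second and the fourth were the highest pair in both replicates, and no junction of the 5 stood far from the others. Other genes with 6 or 7 members included the protocadherin alpha cluster (assigned to Pcdha11), Dab1 of the reelin pathway, the ubiquitin ligase gene March1, Lrrc4c, Pcdh15, Nrxn3 and Macrod2. Reads of overlapping or clustered genes can be split by the assignment of junctions to genes, and 202 members overlap more than 1 gene on their strand.

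Set against shorter introns of the same gene, long junctions had slightly fewer reads. In 592 genes with 3 or more shorter passing junctions, the member with the most reads was lower than the median shorter junction in 344, higher in 244 and equal in 4. The median log2 ratio was -0.13, a ratio of 0.911, and over 590 genes with reads in both replicates it was -0.16 in R2 and -0.17 in R1. In both replicates the member was lower in 277 genes and higher in 184, and in 129 of 590 genes the replicates differed in sign. In 421 genes the long junction was within 2-fold of the shorter ones. Over the whole table the median was 89 reads for members, 129 for the 9411 shorter junctions of their genes and 208 for all 161926 shorter junctions.

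How the comparison is made moved this ratio. Taking the median member of a gene gave -0.31, and the 397 genes with a single member gave -0.30, with 263 lower and 133 higher. Counting shorter annotated introns without a passing junction as 0 turned it to 0.055. Where no other passing junction used either splice site of the member, it was -0.040 over 378 genes, with 196 lower and 178 higher. The shorter junctions were not filtered for shared sites, so the part of site sharing in the ratio cannot be read from this value.

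**Figure D3:**
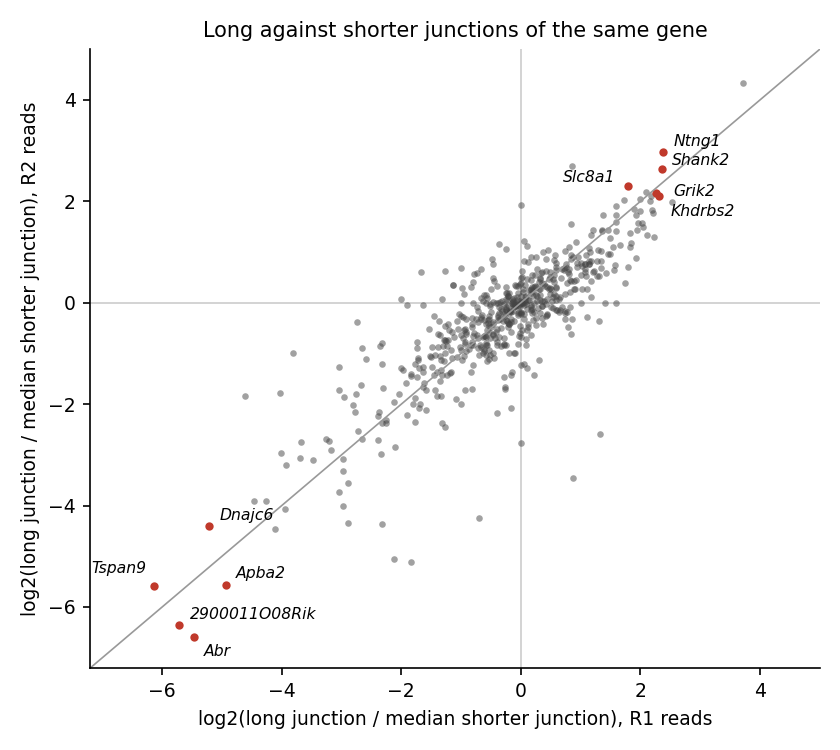
Each point is 1 gene, with the log2 ratio of its long junction to the median of its shorter junctions from R1 reads on the x axis and from R2 reads on the y axis; the diagonal marks equal ratios. Most genes lie near 0 and on the diagonal, and a tail that includes Abr and Tspan9 runs to -6 in both replicates.

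The genes at the low end had a long junction that was a small part of their output. Abr, for a regulator of small GTPases, had 9 reads in R2 and 19 in R1 over its long junction, against medians of 871 in R2 and 844 in R1 for its 25 shorter junctions, a mean log2 ratio of -6.03 ± 0.79 (SD, n = 2). In 2900011O08Rik the long junction had 12 reads in R2 and 18 in R1, against 982 in R2 and 946 in R1 (-6.11). Tspan9, for a tetraspanin of the cell membrane, had 5 reads in R2 and 3 in R1, against 240 in R2 and 210 in R1 (-5.79). Apba2, for a presynaptic adaptor, had 18 in R2 and 28 in R1, against 848 in R2 and 858 in R1 (-5.14). Dnajc6, for a clathrin-uncoating cofactor of neurons, had 15 in R2 and 7 in R1, against 319 in R2 and 261 in R1 (-4.72). The long intron of Abr, Tspan9 and Dnajc6 lay in the 5′ UTR of a transcript and was its first intron. The acceptor sites of these 3 were mostly used by other junctions, with 11.5%, 4.6% and 5.77% of the reads on the member. The same held for Apba2 and 2900011O08Rik, where the member had 2.84% and 1.41% of the reads at its acceptor.

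At the high end the long junction exceeded the shorter ones in both replicates. Ntng1, for netrin-G1, an axonal adhesion protein, had 204 reads in R2 and 115 in R1 over its long junction, against medians of 26 in R2 and 22 in R1, a log2 ratio of 2.67. The cardiac-type sodium-calcium exchanger gene Slc8a1 had 74 in R2 and 50 in R1, against 15 in R2 and 14.5 in R1 (2.31). Shank2, for a postsynaptic scaffold, had 131 in R2 and 41 in R1, against 21 in R2 and 8 in R1 (2.30). Khdrbs2 had 686 in R2 and 552 in R1, against 154 in R2 and 115 in R1 (2.23), and Grik2 had 591 in R2 and 767 in R1, against 137 in R2 and 155 in R1 (2.22). Grik2 held 3 members, of which this was the one with the most reads. With both replicates summed, the others had 485 and 315 reads, against a median of 292 for its shorter junctions. Cradd, for a death-domain adaptor, was higher still at 3.94 but rests on 3 shorter junctions and was chosen after its value was seen.

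Long junctions were also set against their neighbours. Where the transcripts of a member gave several neighbours on a side, the one with the most reads was taken. This choice can only lower the ratio. Against the next shorter intron upstream, the median log2 ratio of 417 members was 0, with 206 lower and 205 higher. Against the next one downstream it was -0.24 over 752 members, with 460 lower and 285 higher, and it was -0.28 in R2 and -0.22 in R1. These are different sets of members, since a first intron has no upstream neighbour. Over the 308 members with both neighbours, the median was -0.15 downstream, with 178 lower and 126 higher, and 0.028 upstream, with 146 lower and 158 higher. These comparisons were added after the data were seen and were not tested. Dner was an exception downstream, with 2176 reads in R2 and 2539 in R1 over the long junction and 821 reads in R2 and 620 in R1 over the next.

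Reads were lower over longer introns in every length class of these genes above 10 kb. Relative to the median of introns under 10 kb in the same gene, the median log2 ratio was -0.11 at 10 to 30 kb, -0.28 at 30 to 100 kb, -0.48 at 100 to 200 kb and -0.42 for introns of 200 kb or more. Without first introns the values were -0.07, -0.15, -0.31 and -0.42 in the same order. Genes with no member had -0.32 at 10 to 30 kb and -0.49 at 30 to 100 kb, and -0.20 and -0.26 without first introns. The lower reads of longer introns were thus not seen in the host genes alone.

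**Figure D4:**
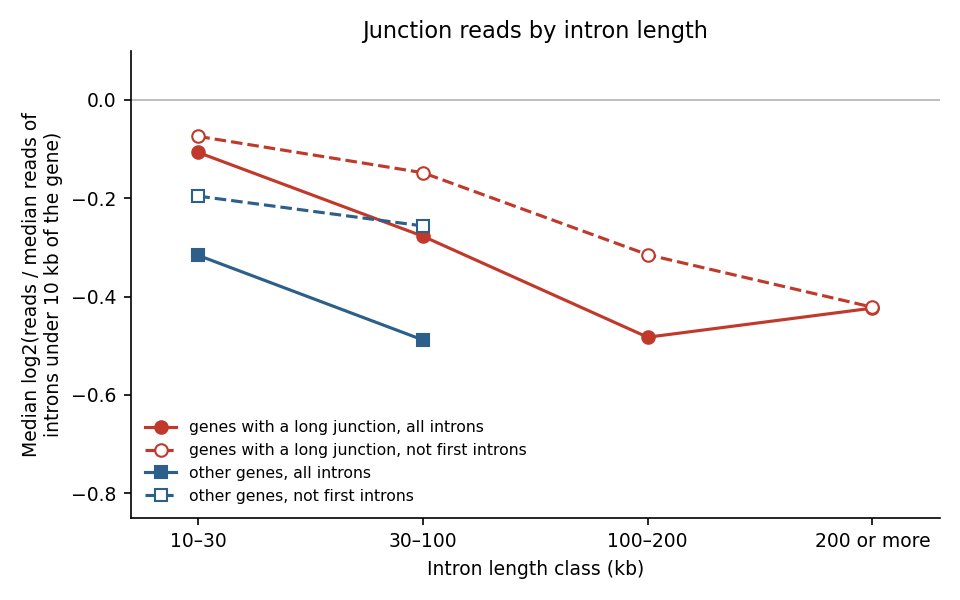
The x axis gives intron length classes in kb and the y axis the median log2 ratio of junction reads to the median reads of introns under 10 kb in the same gene; red stands for genes with a long junction, blue for other genes, and open symbols leave out first introns. The host genes reach -0.48 at 100 to 200 kb and -0.42 at 200 kb or more.

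Detection gave a similar picture. Of the 1738 annotated introns of 100 kb or more, 60.6% were members, 1224 had any read and 514 had none. The share that passed the thresholds was 60.6% for introns of 100 kb or more and 67.0% for shorter ones, and over all annotated introns assigned to 1 gene it was 67%. In genes at 1 RPKM (a read density per length and depth) or more in both mm9 values, it was 70.4% for introns of 100 kb or more and 85.9% for shorter ones. Within these genes it was 63.0% for introns of 200 kb or more. That class has no upper limit, so it takes in annotated introns over 500 kb, of which none of 39 had a read. How many of the 39 lie in these genes is not given here, so no fall with length is read from this value.

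Long introns lay at the start of transcripts more often than shorter introns of the same genes. Of the members 501 (47.6%) were the first intron of an annotated transcript, against 10.5% of the shorter junctions, and 39.7% were first in every transcript that holds them, against 5.66%. Of the 966 members matched to vM21, 168 (17.4%) lay in a 5′ UTR, against 3.66% of the shorter junctions, 745 (77.1%) lay in coding sequence, against 93.8%, and 51 (5.28%) in a noncoding transcript, against 1.89%. First introns among the members had a median of 84 reads and later ones 92. These shares rest on the transcript models of the annotations.

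Splice sites of long introns were shared with other junctions more often than those of shorter introns. The acceptor of 376 members (35.7%) was used by another passing junction, against 16.5% for shorter junctions of the same genes, and the donor of 279 (26.5%), against 15.4%. Among members that are not first introns the acceptor was shared in 32.6%, against 14.0%, and among first introns in 39.1%, against 37.7%. The excess of shared acceptors was thus found among later introns. At 577 members (54.8%) neither site was shared, and at 191 members the junction held under 50% of the reads at its acceptor.

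Gpm6b, a neuronal membrane glycoprotein, shows a shared acceptor. Its long first junction on chromosome X had 542 reads in R2 and 609 in R1, which was 37.3% of the reads at the acceptor (exact binomial 95% interval 35.6 to 39.0). Celf2, an RNA-binding regulator of splicing, joined 3 long introns of 163238, 150742 and 240765 bases to the same acceptor. They carried 440, 194 and 37 reads in R2 and 562, 228 and 35 reads in R1, or 58.4%, 24.6% and 4.19% of its reads. The first intron of Ctnna2, of 133835 bases, took 45.8% of the reads at its donor and 58.6% at its acceptor, while the 3 longer-read junctions of the gene took 98.8% or more at both sites. These intervals and shares cover counting error only, since reads without molecular identifiers are not independent molecules.

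Unannotated junctions that pass the thresholds ran from a member's site to a place inside its intron in 240 members (22.8%). The share among shorter introns is not given here, so nothing is read from the size of this one. At the donor there were 138 such junctions in 123 members with 4023 reads, and at the acceptor 266 in 184 members with 12869 reads. In 67 members they lay at both sites, as an exon inside the intron would give. An annotated or unannotated junction on the far side within 500 bases was found for 71 of the donor-side and 87 of the acceptor-side junctions.

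Rbfox1, a splicing regulator of neurons, had 9 such junctions. Its intron of 415062 bases carried 306 reads in R2 and 262 in R1, while the 9 unannotated junctions led to the same acceptor with 881 reads, so the annotated junction held 39.2% of the site's reads (interval 36.7 to 41.8). The most used of the 9 had 354 reads in R2 and 159 in R1 and began 184285 bases before the acceptor. Ptprn2, for a protein of dense-core vesicles, had 364 reads in R2 and 225 in R1 on the annotated junction and 543 reads on 3 unannotated ones. The leading one of these had 208 reads in R2 and 300 in R1 and spanned 7295 bases. Agap1, for a regulator of Arf GTPases, had 163 reads in R2 and 92 in R1, against 245 in R2 and 165 in R1 on 1 unannotated junction of 22944 bases to the same acceptor. Gm38393, on chromosome 7, had the largest total with 4488 unannotated reads at the acceptor and 825 at the donor, beside 179 reads in R2 and 238 in R1 on the member itself. Members in the protocadherin clusters (Pcdhgc4 and Pcdha11) completed the 5 with the most such reads. On the donor side of its intron of 101009 bases, Grik2 had 136 reads to 1 unannotated site, and the member held 78.1% of the reads at that donor (interval 74.6 to 81.3).

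Gene lists show which kinds of gene carried these introns. The lists were drawn up with earlier results of these data known, so the counts are descriptive. Of 48 synaptic and neurite adhesion genes 39 held a member, with 115 members and a median of 140 reads; of 20 axon guidance genes 18 did, with 30 members and a median of 90.5; and of 36 channel and transmitter receptor genes 29 did, with 51 members and a median of 103. Of 31 scaffold, kinase and cyclic nucleotide genes 28 held one, and of 22 measured cytoskeletal and trafficking genes 13 did. Of 19 RNA-binding protein genes 9 held one, of 40 transcription and chromatin regulators 21, and of 17 glial, vascular and mesenchymal genes 7. Of all 14694 genes at 1 TPM or more in both libraries 4.13% held a member. Given how the lists were chosen, nothing is read from their shares or from differences between lists. The 164 listed genes that carried a member held 367 of the members, or 34.9%.

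Examples span the roles of these lists. Among guidance genes the Slit receptors Robo1 and Robo2 had 360 reads in R2 and 238 in R1, and 351 reads in R2 and 227 in R1, over 162177 and 305613 bases. Ntn1, for netrin-1, had 448 in R2 and 330 in R1, and the ephrin receptor gene Epha3 had 201 in R2 and 256 in R1. Among receptors Gria4, an AMPA receptor subunit, had 433 in R2 and 288 in R1 over 128802 bases. Among transcription factors Nfib had 462 in R2 and 678 in R1, and Ebf1 had 332 in R2 and 209 in R1. R2 exceeded R1 in Robo1, Robo2, Ntn1, Gria4 and Ebf1, and was below it in Epha3 and Nfib.

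The genes that carry members were expressed at moderate levels. In the mm10 tables, 646 host genes were measured and 607 were at 1 TPM or more in both libraries; of all genes 33.9% reached that, but a member needs reads, so nothing is read from the difference. The median level was 12.66 TPM in replicate 2, against 8.94 TPM in replicate 1. Restricted to 1 TPM or more, the host genes' medians were 13.74 TPM (replicate 2) and 9.93 TPM (replicate 1), against 18.4 TPM (replicate 2) and 17.9 TPM (replicate 1) for all genes at that level. By the mean of both libraries Gpm6b was highest with 150.48 TPM in replicate 2 and 188.99 TPM in replicate 1, followed by Abr with 163.38 TPM in replicate 2, against 174.31 TPM in replicate 1. Celf4, Dner, Celf2, Rnf220, Cdh2, Apba2, Ncam1 and Pbx3 came next by mean, between 124 and 147 TPM. This order does not hold in replicate 2, where Ncam1 (171.06 TPM), Abr and Celf4 (160.44 TPM) were above Gpm6b. Of these, Abr and Apba2 had few reads on the long junction, with 28 and 46 reads, below the median of 89 for members.

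Host genes were higher in replicate 2 than in replicate 1 as a group. Over 619 host genes with a mean TPM of at least 1, the median difference of log2(TPM + 1), replicate 2 minus replicate 1, was 0.41, against 0.01 for all 15240 genes. Of the host genes 538 (86.9%) were higher in replicate 2, against 51% of all genes. There were 28 host genes 2-fold or more higher (4.52%, against 2.38% of all genes) and 1 that was 2-fold or more lower (0.162%, against 1.14%). With 1 library against 1 there is no test. Host genes have longer transcripts, with a median of 4158 nt against 2353 nt for other genes, and within the band of 2878 to 5720 nt the median was 0.44 in 309 host genes and 0.13 in 4533 other genes. Outside the gene lists it was 0.36 in 457 host genes. By list, 47 of 48 adhesion genes were higher in replicate 2 (median difference 0.62), 17 of 20 guidance genes (0.62), 32 of 35 channel and receptor genes (0.48), 29 of 31 scaffold, kinase and cyclic nucleotide genes (0.36), 19 of 22 cytoskeletal and trafficking genes (0.59), 15 of 19 RNA-binding genes (0.16), 31 of 40 transcription and chromatin genes (0.32) and 15 of 16 glial, vascular and mesenchymal genes (0.51), with and without a long intron. All 8 lists thus had a positive median, and what lies behind it was not tested.

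The replicates of the junction table differed as well, and no label says whether R2 is replicate 2. Relative to the total junction reads, the median log2 ratio of R2 to R1 was 0.61 for members, 0.59 for shorter junctions of the same genes and 0.14 for all shorter junctions. R2 was the higher in 81.4% of the members and in 84.4% of the shorter junctions of their genes, against 59.2% of all shorter junctions. Long and shorter junctions of the host genes thus differed alike between R2 and R1. Marker sums differed between the libraries too, beside mesenchyme and bone and red cells, given above. Astrocyte markers summed to 102.9 TPM in replicate 2 against 75.3 TPM in replicate 1. Of these 4 markers only 2 were at 1 TPM or more in both libraries, and the lowest value was 0.2 TPM. Skin markers summed to 65.6 TPM in replicate 2 against 44.4 TPM in replicate 1, and progenitor markers to 1859 TPM in replicate 2 against 2045 TPM in replicate 1. The part of these cell types in the difference was not tested.

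The 10 host genes with the largest differences at a mean of 5 TPM or more were all higher in replicate 2. D430041D05Rik had 29.64 TPM in replicate 2 and 10.66 TPM in replicate 1, the largest log2 difference at 1.39. Tiam1, an activator of the GTPase Rac, had 14.96 TPM in replicate 2 and 5.11 TPM in replicate 1 (1.39). Kif26b, a kinesin-family gene, had 12.93 TPM in replicate 2 against 4.63 TPM in replicate 1 (1.31). Ank3, which builds the axon initial segment, had 136.95 TPM in replicate 2 against 62.27 TPM in replicate 1 (1.12), and Dcc, the netrin receptor gene, had 21.43 TPM in replicate 2 and 9.03 TPM in replicate 1 (1.16). The other 5 of the 10 were Nav2, Efna5, Kctd1, Luzp2 and Pcdhgc4. Of the host genes 80 were lower in replicate 2, and Etl4, which was chosen after its value was seen, was the 1 that was lower by 2-fold or more, with 9.34 TPM in replicate 2 and 20.01 TPM in replicate 1 (-1.02).

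**Figure D5:**
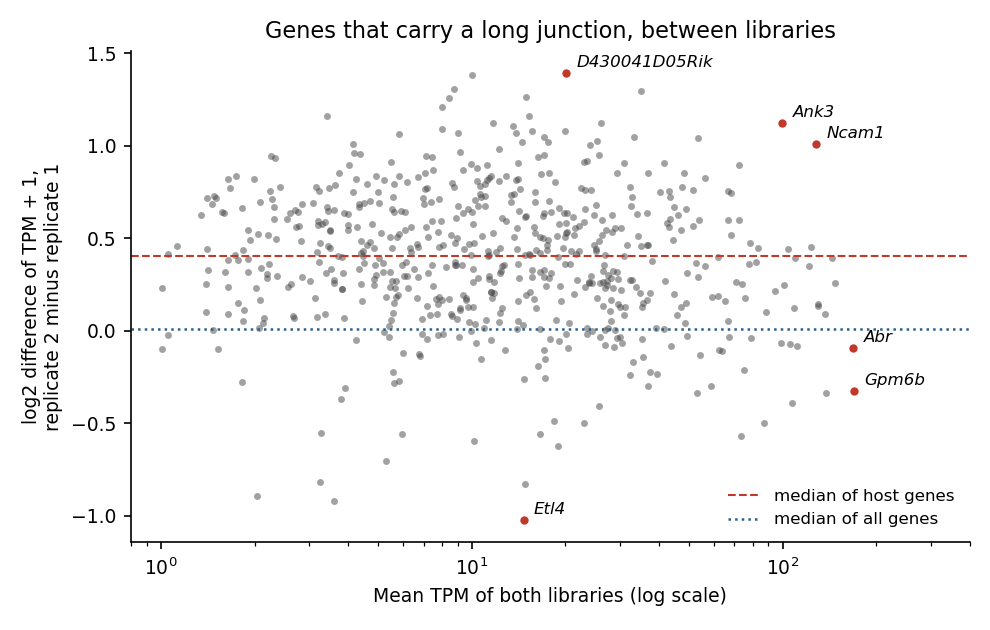
Each point is 1 of the 619 host genes whose mean TPM was at least 1, with mean TPM of both libraries on the x axis (log scale) and the difference of log2(TPM + 1), replicate 2 minus replicate 1, on the y axis; lines give the medians of host genes (0.41, dashed) and of all 15240 genes (0.01, dotted). Host genes lie mainly above 0 at most levels, and Etl4 is the lowest.

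Transcript estimates give another readout of the same introns. They come from the same tissue group, so they are not independent of the junction reads. Members were chosen by reads across the intron, which favours a high share, so these values are a description. Over 947 members in genes at 1 TPM or more, transcripts that carry the long intron took a median of 72.0% of the gene's TPM in replicate 2 and 73.2% of it in replicate 1. In 574 the share was 50% or more in both libraries and in 78 it was under 5% in both. Dner had 99.6% in replicate 2 and 99.7% in replicate 1, Kcnd2 had 100% in both, and Cmip had 99.4% in replicate 2 and 99.5% in replicate 1. Gpm6b had 50.2% in replicate 2 and 52.9% in replicate 1, and Abr had 1.44% in replicate 2 and 0.729% in replicate 1. The junction's share of the reads at its acceptor was 100% in Dner, Kcnd2 and Cmip, 37.3% in Gpm6b and 11.5% in Abr.

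The match of transcripts between annotations limits this readout. Transcripts were matched by identifier, and 87 members differed by 10 points or more between the libraries. For the long junction of Ntng1 the matched transcript took 1.35% in replicate 2 and 1.72% in replicate 1, whereas all vM21 transcripts with an intron of equal length took 93.8% in replicate 2 and 96.0% in replicate 1. For the Grik2 intron of 107674 bases the values were 94.1% in replicate 2 and 93.2% in replicate 1 by identifier, and 0.202% in replicate 2 and 0.148% in replicate 1 by equal length.

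The members nearest to the thresholds were weak or short. Just inside the length limit were Cox16 at 100079 bases with 3 reads in R2 and 4 in R1, Slc8a3 at 100090 bases and Chchd6 at 100113 bases, and just outside were Hivep2 at 99885 bases, Tln2 at 99624 bases and Zfp521 at 99490 bases. Just inside the reproducibility limit were 20 junctions with a value of 0.079 and 5 to 11 reads, among them Sntg1, with 5 reads in R2 and none in R1, and Thrb. Just outside were 15 annotated junctions over 100 kb or more with a value of 0.136 and 4 to 7 reads, among them 1 in Magi2 over 386782 bases with 4 reads in R2 and 3 in R1. The read minimum of 2 removed no further junction, since the lowest member had 5 reads.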

How the data were processed

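Per the labels, 2 stranded libraries of whole brain form 1 group, so nothing was tested and no p-values are given. The deposited junction table on mm9 gives read counts per junction for both replicates (R2 and R1), their sum, and a reproducibility value, a deposited fraction; no header or label used here names the aligner. It was planned to use the sum only, and the replicate values were added once seen. Expected counts, TPM and FPKM per gene, and TPM per transcript, were deposited by the authors on mm10, with GENCODE M4 named in the text notes. Expected counts sum to 101105391 in replicate 2 and 107938353 in replicate 1. Deposited RPKM per gene on mm9 with Ensembl 65 came as 2 values, and each gene is on 2 lines, of which 1 was kept. A score in the deposited junction table fixes the reproducibility value, and 0.1 or less means a score of 5 or more; no header explains it.

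Annotated introns were derived from the deposited mm9 exons; the annotated junctions matched them in 100% of cases. Junctions went to genes by overlap on the same strand, then by equality with a gene's intron; 1 member stayed ambiguous. The members and lists were chosen with earlier results of these data known. Symbols, intron positions and exon sequences came from GENCODE vM21. Ratios of R2 to R1 used a pseudocount of 0.5 and TPM a pseudocount of 1, which understates differences of low genes. The genes named are the 20 members with the most reads, the 10 longest, the 10 genes with the most members, the 5 highest and 5 lowest ratios with 5 or more shorter junctions, those next to thresholds, the 10 largest differences between libraries at 5 TPM or more, the 10 highest host genes, the 5 members with the most unannotated reads inside, and list genes; the text gives some of them. A few genes that enter the counts are not reported here by name. On simulated reads for 592 genes, members set at 0.25, 1 and 4 times the shorter junctions came out at median log2 ratios of -2.01, 0.00 and 2.00. Each simulated gene had 1 member, and its shorter junctions had equal expected reads. The simulation thus did not cover the choice of the member with the most reads, made in the 195 compared genes with several members. Alternatives covered the thresholds, the reference junctions, transcript matching, units and pseudocounts. Python 3.11, numpy, pandas, scipy and matplotlib were used.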

Additional observations from a re-analysis of the deposited data

How the results depend on the processing

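With both libraries in 1 group, no direction was tested. The count of 1053 members was 3075 with introns of 50 kb or more and 237 with 200 kb or more, and between 956 and 1053 under the other read and reproducibility thresholds. The median log2 ratio of long to shorter junctions (-0.13) was -0.28 against the mean of the shorter junctions, -0.28 against introns under 10 kb, -0.31 for the median member, -0.15 with 5 or more shorter junctions, -0.13 with 1 or more, -0.16 without first introns, -0.040 where neither site was shared, -0.24 against the downstream neighbour and 0 against the upstream neighbour; over the members with both neighbours it was -0.15 downstream and 0.028 upstream. R2 alone and R1 alone gave -0.16 each over 591 genes, against -0.16 in R2 and -0.17 in R1 over the 590 genes with reads in both. The ratio turned to 0.055 with undetected shorter introns at 0, since that lowers the median they are compared with. The filter on shared sites was applied to members only. Detection was 70.4% in genes at 1 RPKM or more (60.6% in all genes), and 39.7% of members were first introns in every transcript (47.6% in any). Sites were shared in 39.3% of members when the other junction needed 10 reads (45.2% otherwise), and 124 members held unannotated junctions at a reproducibility value of 0.01 or less (240 at 0.1). The median host level was 6.78 in FPKM and 1.34 in mm9 RPKM, which are other units than the 10.97 TPM. The median transcript share was 57.8% in genes at 10 TPM or more and 76.6% with transcripts of equal intron length (72.8% otherwise). The difference between libraries stayed positive in every alternative run, from 0.33 in FPKM to 0.47 without mitochondrial and spike-in rows. No paired analysis was possible because there is only 1 group.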

Other observations

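Long introns also hold other genes. Within 380 of the members 562 annotated genes lie wholly inside the intron, 39 of them protein-coding, and 7 of these were at 1 RPKM or more in both mm9 values. The share of all protein-coding genes at that level and the share of shorter introns that hold a gene are not given here. Nothing is therefore read from the size of these counts. Lrrtm1, for a synaptic adhesion protein, lies inside the Ctnna2 intron of 461237 bases on the opposite strand and had 4.69 RPKM in the second value and 3.43 RPKM in the first, while the junction over it carried 1647 reads. Timp3, for an inhibitor of matrix proteases, lies inside an intron of Syn3 on the opposite strand and had 2.13 RPKM in the second value and 2.83 RPKM in the first. Flrt3, for an adhesion protein that binds latrophilins and Unc5 receptors, lies inside an intron of Macrod2 and had 1.70 RPKM in the second value and 1.78 RPKM in the first. Cstf2t, for a polyadenylation factor, lies inside an intron of Prkg1 and had 4.88 RPKM in the second value and 4.96 RPKM in the first, and the junction over it carried 30 reads. No label ties either RPKM value to a library. These genes were chosen after their values were seen.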
